A study of Mus musculus with 7 samples.

Results

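Wild-type (WT) chondrocytes carried 368 broad H3K27ac domains. They were chosen by their width from a list of 33369 H3K27ac peaks on chromosomes 1 to 19 and X, as every peak of 5000 bp or more from start to end. The domains made up 1.1% of the peaks but 7.39% of the length that the list covered, 2.66 Mb in all. Of the 368 domains, 229 (62.2%, exact 95% interval 57.1 to 67.2) lay at a promoter, with the annotated 5′ end (transcription start site, TSS) of a protein-coding gene no more than 1 kb away, and 139 were distal.

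The list came from ChIP-Seq of primary rib cartilage chondrocytes of WT mice. The series compares them with chondrocytes of the genotype E160(delta/delta);E308(delta/delta), which lack both copies of E160 and E308, enhancers upstream of Sox9, removed with CRISPR/Cas9. Per the study's methods both sets of cells came from littermates, rib cartilage was taken from newborn mice, and cells were used within a few passages of culture. Further primary chondrocyte libraries, for which no genotype is labelled, gave H3K27ac replicates 1 and 2 and an H3K4me2 list, and primary dermal fibroblasts from skin gave an H3K27ac list. Every list was called on 1 library. Differences between lists were therefore not checked against replicates and carry no p-value, the exact intervals cover counting error over regions or genes only, and read depth is unknown because the lists give peaks without read numbers. A width is also set by where the peak caller joined or split enriched stretches.

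H3K27ac, acetylated lysine 27 of histone H3, marks promoters and enhancers in use, and H3K4me2, dimethylated lysine 4, marks accessible promoters and enhancers more widely. In many cell types long unbroken stretches of H3K27ac lie over genes that the cell type transcribes strongly, among them its own lineage regulators, and over enhancers that lie close together. In cartilage, Sox9 with its partners Sox5 and Sox6 directs the genes of the matrix, such as those of type II, IX and XI collagen and aggrecan.

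The sequence at the point of highest enrichment (the summit) differed among the widest domains in its content of CpG, the dinucleotide that is dense in CpG island promoters. The widest promoter and distal domains whose 200 bp around the summit overlapped no annotated exon are shown, read from the plus strand of mm9, with each CpG in capitals. The promoter examples are Col1a1 (chr11:94797813-94798012), which encodes a chain of type I collagen, Amotl2 (chr9:102620355-102620554), an angiomotin family gene of the Hippo pathway, and Tnrc18 (chr5:143578723-143578922). The distal examples lie inside Nfix (chr8:87304107-87304306), a nuclear factor I gene, between genes nearest to Ppara (chr15:85502220-85502419), whose TSS is 52.4 kb away, and inside Plec (chr15:76029502-76029701), the gene of the cytoskeletal linker plectin.
Col1a1: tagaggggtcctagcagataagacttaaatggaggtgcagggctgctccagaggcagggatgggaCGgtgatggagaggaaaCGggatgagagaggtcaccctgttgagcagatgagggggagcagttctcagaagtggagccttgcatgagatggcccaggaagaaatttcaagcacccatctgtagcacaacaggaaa
Amotl2: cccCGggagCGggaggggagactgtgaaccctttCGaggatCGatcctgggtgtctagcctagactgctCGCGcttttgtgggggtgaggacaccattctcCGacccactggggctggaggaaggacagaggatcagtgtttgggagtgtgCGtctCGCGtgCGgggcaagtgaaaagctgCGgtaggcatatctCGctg
Tnrc18: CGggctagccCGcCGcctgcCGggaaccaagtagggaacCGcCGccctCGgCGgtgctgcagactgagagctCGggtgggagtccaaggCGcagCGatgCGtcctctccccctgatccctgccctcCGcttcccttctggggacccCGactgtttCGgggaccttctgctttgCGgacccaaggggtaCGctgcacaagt
Nfix: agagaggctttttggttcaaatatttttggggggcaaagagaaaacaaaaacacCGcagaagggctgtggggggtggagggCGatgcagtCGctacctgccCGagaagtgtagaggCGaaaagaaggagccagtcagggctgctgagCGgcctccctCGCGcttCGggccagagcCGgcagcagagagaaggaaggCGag
near Ppara: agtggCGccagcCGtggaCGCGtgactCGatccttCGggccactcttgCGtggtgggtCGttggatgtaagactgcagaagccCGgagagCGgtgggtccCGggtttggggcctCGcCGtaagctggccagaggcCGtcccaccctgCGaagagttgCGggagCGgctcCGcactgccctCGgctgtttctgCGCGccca
Plec: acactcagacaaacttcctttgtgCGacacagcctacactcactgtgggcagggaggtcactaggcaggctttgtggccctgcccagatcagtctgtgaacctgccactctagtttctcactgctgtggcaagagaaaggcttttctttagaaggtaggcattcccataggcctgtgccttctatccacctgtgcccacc
The windows hold 2, 13 and 17 CpG at Col1a1, Amotl2 and Tnrc18, and 11, 21 and 1 at Nfix, near Ppara and at Plec. At Nfix and Plec another transcript of the gene began within 1 kb of the domain, so these are distal only to the annotated gene start. The window of the Col1a1 promoter domain had few CpG, and the window near Ppara, between genes, had the most. Windows over exons were left out, so a window over the first exon of a gene could not be shown. The windows at Col1a1, Amotl2 and Tnrc18 lie inside these genes, downstream of the annotated start. They therefore do not describe CpG at the gene start, and these examples do not stand for all domains. Over all domains, the median was 16 CpG per 200 bp window at promoter domains and 5 at distal domains, against 20 and 3 at WT peaks of 2 to 5 kb. Across the whole domain, the ratio of observed to expected CpG had a median of 0.484 at promoters and 0.264 elsewhere, and 0.662 and 0.238 for peaks of 2 to 5 kb.

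The promoter sequences of the genes under the domains were compared with those of other marked genes. RefSeq's promoter table (GRCm38.p6, from 250 bases before to 50 after the gene start) held 242 promoters of 190 of the 262 genes. Their median GC content was 62.3%, against 64.3% for genes with a WT promoter peak of 2 to 5 kb. It was 57.0% for 19850 promoters of the protein-coding genes found in both mm9 and GRCm38. The ratio of observed to expected CpG was lower than at the genes of 2 to 5 kb peaks, with medians of 0.699, 0.829 and 0.595, and so was the median number of CpG, 20 against 25 and 14. The GC box GGGCGG was present in 65.7%, 69.6% and 48.1% of the promoters in the same order, the CCAAT box in 38.4%, 34.0% and 38.2%, and TATAAA in 9.92%, 6.93% and 12.2%. The sequence TGANTCA, which AP-1 factors bind, was present in 3.72%, 4.39% and 7.10%, ACAAT, the core bound by SOX factors, in 19%, 17.2% and 26.7%, and the E-box CACGTG in 7.44%, 10.3% and 8.12%. Both strands were searched, and matches of CCAAT and ACAAT on opposite strands can overlap. Meis2 and Foxc1 are shown as genes with wide domains and unlike promoters, by the 250 bases before the gene start in the direction of transcription, with matches to these motifs in capitals. The Meis2 stretch is on the minus strand of chr2:116064620-116064869 and the Foxc1 stretch on the plus strand of chr13:31806396-31806645, both in GRCm38.
Meis2: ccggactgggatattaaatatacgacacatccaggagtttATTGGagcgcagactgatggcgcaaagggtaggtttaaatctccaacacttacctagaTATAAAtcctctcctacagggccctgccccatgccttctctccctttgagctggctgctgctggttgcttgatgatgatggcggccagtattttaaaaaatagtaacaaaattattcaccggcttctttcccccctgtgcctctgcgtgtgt
Foxc1: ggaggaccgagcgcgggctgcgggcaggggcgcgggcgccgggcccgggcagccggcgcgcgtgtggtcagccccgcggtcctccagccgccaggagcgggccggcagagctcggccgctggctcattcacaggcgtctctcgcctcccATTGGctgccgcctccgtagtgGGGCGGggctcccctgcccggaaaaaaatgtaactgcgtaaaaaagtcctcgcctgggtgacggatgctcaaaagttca
The Meis2 stretch has a GC content of 47.6% with 7 CpG, a TATAAA and a CCAAT box, and the Foxc1 stretch has 70.8% with 29 CpG, a GC box and a CCAAT box. A match describes these letters and does not show a bound factor.

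Domains also lay over microRNA genes, which encode short RNAs that silence messenger RNAs by pairing through a seed at bases 2 to 8. Of the 368 domains, 13 (3.53%) held 15 annotated microRNA genes, against 41 of 4206 WT peaks of 2 to 5 kb (0.975%), or 5.64 and 3.78 genes per Mb of peak. For each of the 8 with a Mir symbol, 1 mature sequence from RefSeq (GRCm38.p6) is shown with its seed in capitals, since these are the RNAs whose genes lie under the domains. miR-140 is the microRNA best known from cartilage, miR-199a and miR-214 come from the Dnm3os transcript, let-7i is a let-7 family member, and miR-675 comes from H19.
miR-140-3p: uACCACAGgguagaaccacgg
miR-199a-5p: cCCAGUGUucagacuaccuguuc
miR-214-3p: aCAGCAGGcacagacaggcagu
miR-21a-5p: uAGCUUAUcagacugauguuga
let-7i-5p: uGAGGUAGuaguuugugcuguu
miR-503-5p: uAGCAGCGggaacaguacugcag
miR-322-5p: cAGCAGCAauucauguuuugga
miR-675-5p: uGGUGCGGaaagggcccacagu
These 8 seeds are all different, although those of miR-503-5p and miR-322-5p, whose genes share a domain, differ in their last base only.

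The domain over Mir140 (chr8:110067275-110077532, mm9) is 10258 bp wide and lies inside Wwp2. Deletion chondrocytes kept 97.4% of it, in a peak of 9990 bp, and chondrocyte replicate 2 had a peak of 12634 bp over Mir140 at its GRCm38 position. Replicate 1, H3K4me2 and fibroblast peaks covered 0% of it. The domain over Mir199a-2 and Mir214 (chr1:164145392-164156780), 11389 bp, lies inside Dnm3 and holds the noncoding gene Dnm3os. It was kept to 97.3%, replicate 2 had a peak of 5322 bp at Mir199a-2 and of 303 bp at Mir214, and fibroblast peaks again covered 0%. The Mir21 domain inside Vmp1 is 12122 bp wide and was kept to 91.9%. The Mirlet7i domain, 6479 bp, was covered to 85.7% by deletion peaks and to 79.6% by fibroblast peaks. The domain over Mir503 and Mir322 on chromosome X, 6345 bp, was kept to 71.7%, and that over H19 and Mir675, 5471 bp, to 66.7%. The 13 domains at microRNA genes ranged from 66.7% to 97.6% kept in the deletion. At the other genes with a Mir symbol replicate 2 peaks were narrower than 5 kb, with 2235 bp at Mir21, 4129 bp at Mirlet7i, 254 bp at Mir503, 1735 bp at Mir675 and none at Mir322. A further microRNA gene, mmu-mir-1907, lies in the promoter domain of Trps1.

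The domains varied in width from 5014 to 29892 bp, with a median of 6232 bp (quartiles 5471 and 7515), while the median of all WT peaks was 714 bp. Between 5 and 6 kb there were 161, between 6 and 8 kb 127, and 80 were of 8 kb or more, of which 43 reached 10 kb. At the edge of the choice, the narrowest domains were 5014 bp (inside Ctnnd1), 5014 bp (Lphn2) and 5015 bp (Klf7), and the widest peaks left out were 4991 bp (Wisp1), 4990 bp (near Cep63) and 4977 bp (near Chd2). The domains also had high enrichment, with a median fold of 30.4 over the local background against 6.88 for all WT peaks. By the caller's score, 251 domains were among the top 10% of the list and 17 were below the top 25%. The 13878 bp domain inside Col2a1 had the lowest score of all domains, with a fold of 9.43.

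The 229 promoter domains lay at 262 protein-coding genes, 1.18% of the 22208 genes in the annotation. A single gene start was found at 200 of them, and the Hoxa domain with Hoxa3, Hoxa5, Hoxa6 and Hoxa7 had the most, 4. Of 262 pairs of gene and domain, 251 had the TSS inside the domain. From these starts the domain reached a median of 1709 bp upstream and 4745 bp downstream, and it reached farther downstream than upstream in 200 pairs (79.7%). In 41 pairs the domain held the whole gene. Among these were Sox9, the transcription factor Foxc1, the BMP response gene Id3, the inhibitor of cytokine signalling Socs3, the mesenchymal factor Twist1 and the T-box gene Tbx2.

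**Figure D1:**
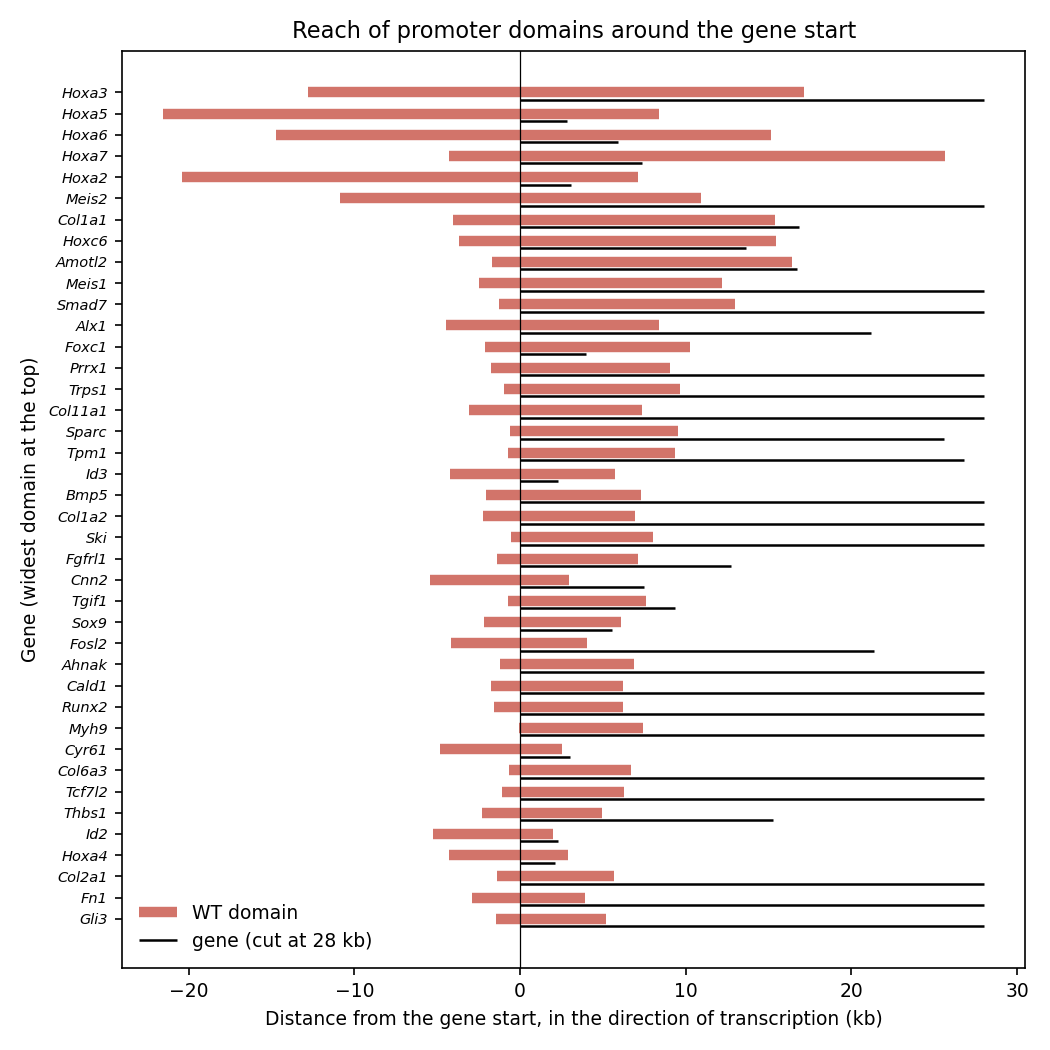
Reach of the widest promoter domains at genes of the gene lists whose TSS lies inside the domain, 1 gene per line; red bars are WT domains and black lines the genes from their start (distance in kb, transcription to the right). Lines of long genes are cut at the right. Most bars extend farther to the right, into the gene, than to the left, while some, such as those of Hoxa2, Hoxa5 and Id2, extend mainly to the left.

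Of the 15 widest promoter domains, the first 3 were at Hox genes and Meis2. Hox genes set position along the body axis, and their widest domain (chr6:52146226-52176117, 29892 bp) was followed by that of Hoxa2 (27511 bp). With a domain of 7147 bp at Hoxa4 they filled 64.5 kb of a stretch of 67.8 kb. Hoxc5 and Hoxc6 shared 19178 bp. Meis2, a Hox cofactor, had 21763 bp (chr2:115880669-115902431) and Meis1 14661 bp. Tbx3, a limb T-box factor, had 14996 bp, and the craniofacial factor Alx1 12835 bp. Prrx1, a factor of limb mesenchyme outside the 15 widest, had 10814 bp. The other domains among the 15 widest at promoters were at Col1a1 (19419 bp), Amotl2 (18119 bp), Tnrc18 (15137 bp), Smad7 (14267 bp), Foxc1 (12388 bp), 2610203C20Rik (12079 bp), Stx16 (11263 bp) and Cirbp (11045 bp). All 15 were kept to between 82.1% (Tbx3) and 98.6% (Hoxc5 and Hoxc6) in the deletion. Of 39 Hox genes 9 had a domain at the promoter, all in the Hoxa and Hoxc clusters, and of 40 mesenchymal patterning factors 9 did, the widest being Meis2, Meis1, Alx1 and Prrx1.

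Among 21 chondrocyte regulators, 12 had a WT peak at the promoter and 6 a domain, while 10497 of all 22208 genes had a WT promoter peak. Sox9 had a WT domain of 8247 bp (chr11:112641353-112649599) over its whole length of 5537 bp, from 2185 bp upstream of the TSS to past the end of the gene. In the deletion 89.1% of this width was under 3 peaks, the widest of 6611 bp. Replicate 2 had 5588 bp at the Sox9 start, H3K4me2 2713 bp, fibroblasts 1297 bp, and replicate 1 had no peak listed there.

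Foxc1, a forkhead factor of skeletal mesenchyme, had the widest domain of the regulators, 12388 bp, with 8944 bp at the promoter in the deletion and 6938 bp in replicate 2. Trps1, a GATA-type repressor of the growth plate, had 10654 bp, with 9056 bp in the deletion and 4347 bp in replicate 2. Runx2, which drives chondrocyte hypertrophy and bone formation, had 7764 bp at its promoter, 5999 bp in the deletion and 1045 bp in replicate 2. Gli3, an effector of hedgehog signalling, had 6656 bp, and Arid5b, a chromatin factor that acts with Sox9, had 6179 bp. In the deletion these 6 promoter domains were kept to between 83.0% (Gli3) and 95.5% (Arid5b). Only at Arid5b was the fibroblast peak also above 5 kb, at 5697 bp, while Foxc1 and Runx2 had none listed.

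Distal domains of regulators lay inside Sox5 (9073 bp, 572.1 kb from the nearest gene start), Runx2 (7287 bp) and Runx1 (6428 bp). The Sox5 domain lies at the start of a shorter Sox5 transcript, while the start of the full-length gene carried no WT peak. The Sox5 domain was kept to 87.2%, and none of the replicate 1, H3K4me2 and fibroblast lists had a peak in it. Sox6 had a promoter peak of 3972 bp, under the width limit.

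Of 20 cartilage matrix genes, 15 had a WT promoter peak and 3 a domain there. Col11a1, a chain of type XI collagen, had 10456 bp in WT, 9814 bp in the deletion and 11213 bp in replicate 2. Col2a1, type II collagen, had a promoter domain of 7110 bp and 2 further domains inside the gene, of 13878 and 5588 bp. The 3 domains together cover 26.6 kb of 27 kb (chr15:97809563-97836570). In the deletion the promoter domain was kept to 90.8%, the larger inner domain to 85.8% in 8 pieces, the widest of 2590 bp, and the smaller to 52.5%, the lowest value of all domains. Replicate 2 had 5531 bp at the Col2a1 start. Bgn, the proteoglycan biglycan, had 5116 bp in WT, 2048 bp in the deletion, 1468 bp in replicate 2 and 5294 bp in fibroblasts. A distal domain of 6480 bp lay 74.4 kb from the Col11a1 start and was kept to 76.0%. Aggrecan (Acan) had a WT peak of 4060 bp and a replicate 2 peak of 5022 bp, so that it fell short of the limit in WT. Bgn was the gene among these 3 with a fibroblast peak.

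**Figure D2:**
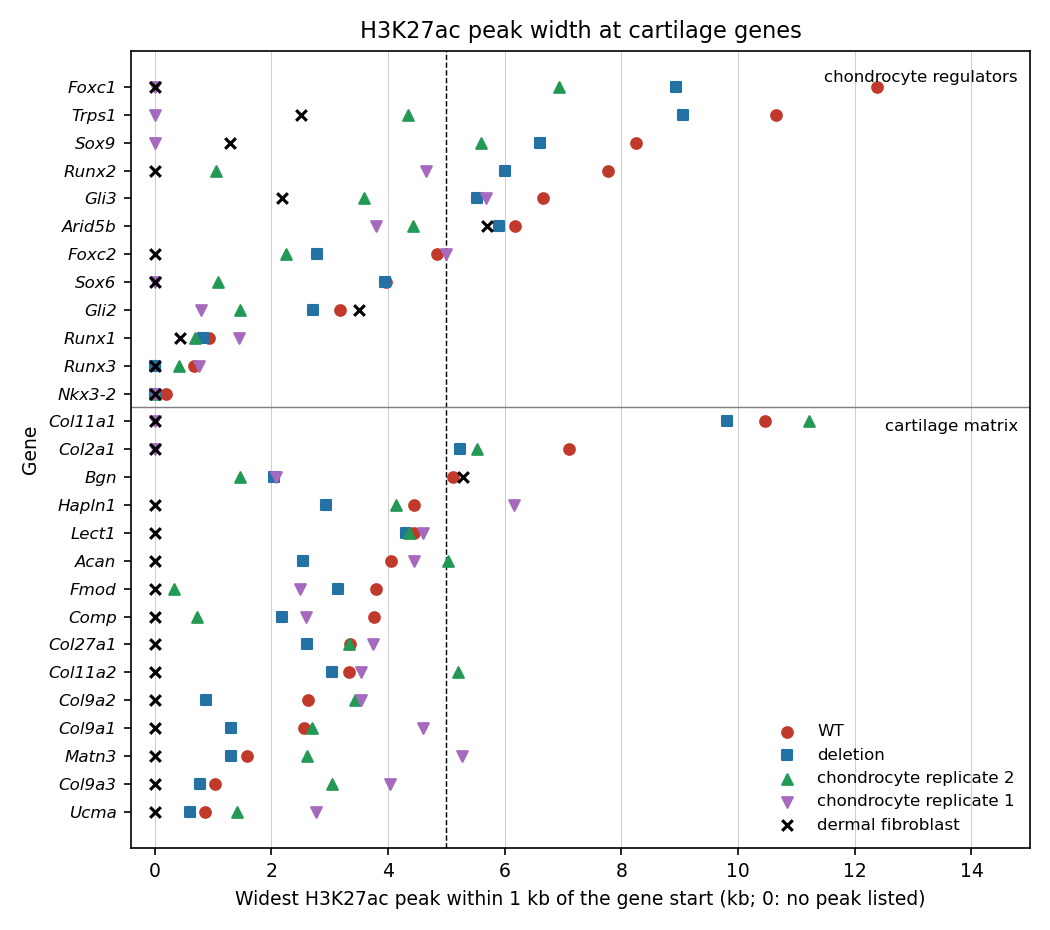
Width of the widest H3K27ac peak within 1 kb of the start of each chondrocyte regulator and cartilage matrix gene that had a WT peak, in 5 lists (kb; 0 means that no peak is listed; the dashed line marks 5 kb). Foxc1 and Col11a1 have the widest WT peaks of their lists, at 12388 and 10456 bp, and Bgn and Arid5b have fibroblast peaks above 5 kb.

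Of 23 genes of general connective tissue matrix, 21 had a WT promoter peak and 10 a domain. Col1a1 had 19419 bp (chr11:94793500-94812918) in WT and 18152 bp in the deletion, but 1177 bp in replicate 2 and 1711 bp in replicate 1. Sparc, a collagen-binding matrix protein, had 10121 bp in WT, 8662 bp in the deletion and 8447 bp in replicate 2. Col1a2 had 9178 bp and Col6a3, a type VI collagen chain, 7317 bp, with replicate 2 peaks of 1656 and 707 bp. Col1a1, Col1a2, Col3a1 and Pdgfra are among 10 genes used as fibroblast markers, of which 8 had a WT promoter peak and 4 a domain. Against the 10497 of 22208 genes with a WT promoter peak, of 12 chondrocyte markers 10 had a WT promoter peak and 2, Sox9 and Col2a1, a domain. Of 8 osteoblast markers, 3 had a WT peak and Runx2 a domain. Marker genes of endothelium had a peak at 1 of 8, and those of skeletal muscle, keratinocytes and blood at 0 of 8, 0 of 5 and 0 of 6. The part of cells other than chondrocytes in the collagen I domains was not tested. The fibroblast list itself had a promoter peak at 6 of its 10 markers and none at Col1a1, Col1a2 and Col3a1, so that a peak missing from it is not read as missing acetylation.

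Signalling genes formed a further group. Of 41 genes of TGF-beta and BMP signalling, 10 had a domain, the widest at the inhibitor Smad7 (14267 bp), Id3 (9972 bp), Bmp5 (9324 bp) and the Smad repressor Ski (8541 bp). The inhibitor Smad6 had 6568 bp, under a deletion peak of 6658 bp, whereas Bmp4 had 5378 bp kept to 62.2%, with no replicate 2 peak. Of 16 genes of FGF signalling, 3 had a domain, at the receptor-like gene Fgfrl1 (8473 bp) and the inhibitors Spry2 (6451 bp) and Dusp6 (5854 bp), with a distal one inside the receptor gene Fgfr2 (8047 bp). Of 24 Wnt genes, 3 did, at the effector Tcf7l2 (7312 bp) and the receptors Fzd7 (5703 bp) and Fzd2 (5066 bp). Of 13 genes of the YAP/TAZ pathway, 3 did: Amotl2 (18119 bp) and the targets Cyr61 (7396 bp) and Ctgf (5622 bp). Amotl2 was also broad in replicate 2 (11369 bp), in replicate 1 (6410 bp) and in fibroblasts (7216 bp).

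Of 26 cytoskeleton genes, 12 had a promoter domain, among them tropomyosin Tpm1 (10083 bp), calponin Cnn2 (8386 bp), Ahnak (8095 bp) and caldesmon Cald1 (7970 bp), and 7 distal domains lay inside genes of this list. The myosin heavy chain gene Myh9 had 3 domains, of 11959, 11221 and 7516 bp, within 45.4 kb. Of 30 AP-1 and immediate early genes, 7 had a domain, the widest at Fosl2 (8188 bp), Klf6 (6288 bp), Myc (6259 bp) and Ier2 (6032 bp). Of these 7, 4 were broad in replicate 2. Hypoxia and glycolysis genes had 2 of 16, Pkm2 (5985 bp) and Vegfa (5628 bp), and the secretory pathway 1 of 19, the collagen chaperone Serpinh1 (5268 bp). Ribosomal protein genes, with a WT promoter peak at 81 of 84, had no domain, and neither did any of 24 regulators of other lineages, 2 of which had a peak. All these counts stand beside 1.18% of all genes with a domain, and the genes in the lists were not drawn at random.

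Of the 139 distal domains, 106 lay inside a protein-coding gene and 33 between genes. Their median distance to the nearest gene start was 25.8 kb, 30 lay within 10 kb and 26 beyond 100 kb. At 53 of them, all inside genes, another transcript of a protein-coding gene began within 1 kb, so that these are distal only to the annotated gene start. Starts of noncoding genes lay at 19, and 75 had neither. The widest distal domain, inside Nfix (chr8:87293813-87315543, 21731 bp), is at such a start. It was followed by domains near Ppara (18640 bp), inside 2010111I01Rik (17283 and 13261 bp), Plec (17180 bp), Col2a1 (13878 bp), between genes 113.3 kb from Gm9953 (13267 bp), and inside Vmp1 (12122 bp), Myh9 (11959 bp) and at the noncoding gene Neat1 beside Frmd8 (11957 bp). Neat1, the scaffold RNA of nuclear paraspeckles, and Malat1, an abundant nuclear RNA with a domain of 10707 bp, lie within 57.1 kb of chromosome 19. Of 10 long noncoding RNA genes looked up, Neat1, Malat1, Dnm3os, H19 and Gas5 had a domain over them. Meg3, Snhg1 and Xist had narrower WT peaks, Mir17hg had none, and Hotair was not in the annotation. These genes were not drawn at random, and no share over all noncoding genes was computed. In all, 81 domains stood in 38 groups in which each was within 50 kb of the next, and 24 genes had more than 1 domain.

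Deletion chondrocytes kept most of the width of the domains. H3K27ac peaks of the deletion list covered a median of 88.4% of a domain (quartiles 80.1 and 93.3), and the value ran from 52.5% to 100%. Of the 368 domains, 278 kept 80% or more (75.5%, interval 70.8 to 79.8), and none kept less than 50%. Among all WT peaks 24.7% kept 80% or more, and among those of 2 to 5 kb 54.7%. The share was 67.1% for domains of 5 to 6 kb, 75.6% for 6 to 8 kb and 92.5% for 8 kb or more (intervals 59.2 to 74.3, 67.2 to 82.8 and 84.4 to 97.2), given as a description, since width chose the domains. Promoter domains kept a median of 89.3% and distal domains 85.9%, and 81.2% against 66.2% kept 80% or more (intervals 75.6 to 86.1 and 57.7 to 74.0).

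What remained was often in pieces. A single deletion peak lay over 125 domains and several over 243, up to 8 at Col2a1. A deletion peak of 5 kb or more lay over 157 domains (42.7%, interval 37.6 to 47.9). Conversely, each of the 161 deletion peaks of 5 kb or more overlapped a WT domain. The deletion list was shorter as a whole, with 25213 peaks against 33369. The width kept moved with the score of the domain: in the 92 domains with the lowest scores the median was 77.8% and 43.5% kept 80% or more, and in the 92 with the highest scores 90.9% and 90.2%. The part of the score, and of the shorter list, in the width lost was not tested.

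**Figure D3:**
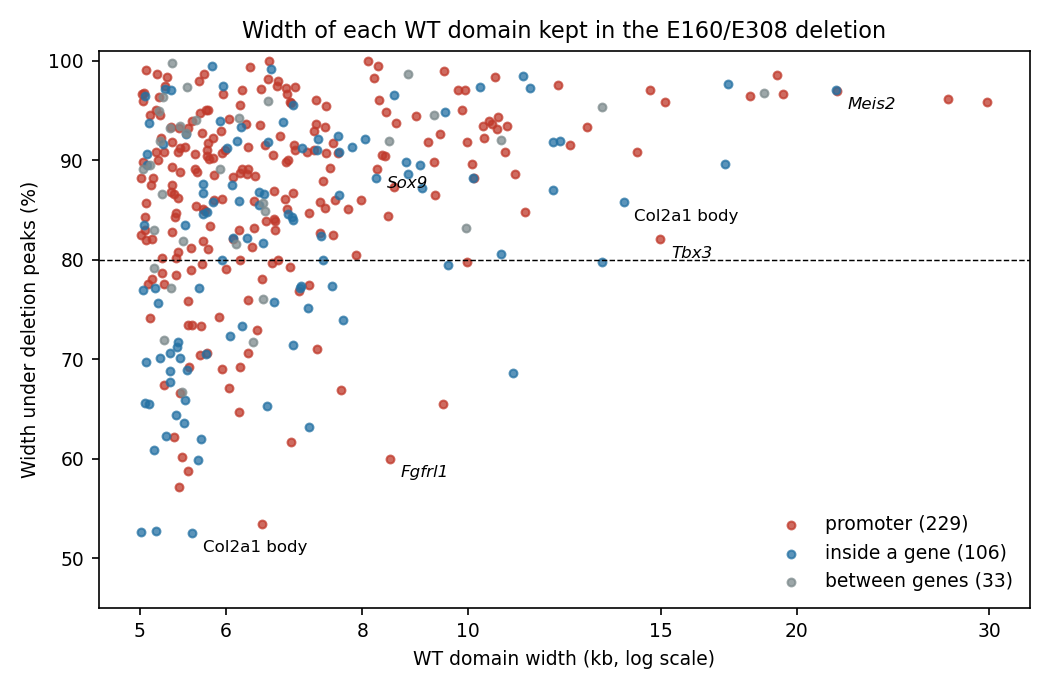
Share of each WT domain under peaks of the E160/E308 deletion list (%, vertical axis) against its width in WT (kb, log scale), 1 point per domain, coloured by position; the dashed line marks 80%. No domain lies under 50%, and 74 of the 80 domains of 8 kb or more lie at or above 80%.

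The lowest values were 52.5% inside Col2a1, 52.6% inside Ctnnd1, the gene of p120 catenin, 52.7% inside Sema3f, a semaphorin, 53.4% at G430095P16Rik beside Nfix, and 57.1% at Cdon, a hedgehog co-receptor. The highest were 100% at Ahnak and, after rounding, at Smad6, 99.8% at a distal domain nearest to the cadherin gene Fat1, and 99.5% inside Btd and at Zc3h4. At Ahnak a deletion peak of 8478 bp went past the WT domain of 8095 bp. The deletion peaks over a domain spanned more than the WT width at 13 domains, among them Id1 (7408 against 6372 bp), Fosl2 (8250 against 8188 bp) and Lox (5562 against 5439 bp). The 5 lowest had 3 or 4 deletion peaks each and the 5 highest a single one.

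Replicate 2 of the chondrocyte H3K27ac libraries is on the GRCm38 build and was compared by gene. Of the 262 genes with a WT promoter domain, 245 had a position in both builds. Of these, 230 (93.9%) had a replicate 2 peak within 1 kb of the TSS, and 60 (24.5%, interval 19.2 to 30.4) had one of 5 kb or more. Among all 20213 genes of both builds 0.341% had one, and among genes with a WT promoter peak of 2 to 5 kb 0.261% (7 of 2683). The share was 55.4% for genes with a WT domain of 8 kb or more and 15.3% for 5 to 8 kb (intervals 41.5 to 68.7 and 10.5 to 21.3). Replicate 2 peaks were narrower: at the 223 promoter domains with a gene in both builds their median width was 48.9% of the WT width, and 5 were wider than the WT domain. This is a description, since the domains were chosen by their WT width. The replicate 2 list was also shorter as a whole, with 20450 peaks and 102 of 5 kb or more, against 33369 and 368 in WT.

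Beside the peak over Mir140 in Wwp2 (12634 bp), the widest replicate 2 peaks at starts of genes with a WT domain were at Tnrc18 (11696 bp), Amotl2 (11369 bp), Col11a1 (11213 bp) and the insulin receptor substrate Irs1 (9820 bp). Measured at 1 annotated start per gene, the widest WT promoter domains without a replicate 2 peak of 5 kb were at Meis2 (1592 bp in replicate 2 for 21763 bp in WT), Col1a1 (1177 for 19419 bp), Smad7 (4631 for 14267 bp), Stx16 (2565 for 11263 bp) and Cirbp (1706 for 11045 bp). For Meis2 this depended on the start: a replicate 2 peak of 5745 bp lay over the Meis2 start whose upstream sequence is shown above. Another of 5376 bp lay near Cirbp, more than 1 kb from its start. With every RefSeq start of each gene, a choice made after seeing the data, Meis2 and Midn were added and 25.3% of the genes were broad in replicate 2, beside 0.376% of all genes. Of 106 domains inside a gene, 29 had a replicate 2 peak of 5 kb or more somewhere in the same gene. Of 33 between genes 7 had one with the same nearest gene. Peaks at the gene start were counted too, as at Prrx1 (6925 bp) and Sim2 (5355 bp) for domains inside genes. Between genes this held at Col11a1 (11213 bp), Chd2 (5516 bp), Alx1 (5065 bp) and Meis1 (8963 bp). Near Col11a1, replicate 2 also had a distal peak of 6646 bp (chr3:113948652-113955297, GRCm38). Its position was not compared with that of the distal WT domain, since no coordinate was converted between builds. The 6424 bp peak near Ppara counted for each WT domain nearest to that gene. These counts therefore do not show that the distal domains themselves recur, and no share over all genes was computed for them. Seen from replicate 2, 79 of its 102 peaks of 5 kb or more lay at or in a gene with a WT domain. A group of 8 others, with the widest peak of the list, 46443 bp, lay within 154.4 kb of chromosome 2 nearest to Cwc22 and Zfp385b, where WT had no domain. The peak at the Cwc22 start had a fold of 87.1, the highest among the 102. What sets this stretch apart was not tested. A replicate 2 peak of 10179 bp nearest to Frmd8, the gene beside Neat1, is outside the 79 because it lies between genes in that annotation.

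**Figure D4:**
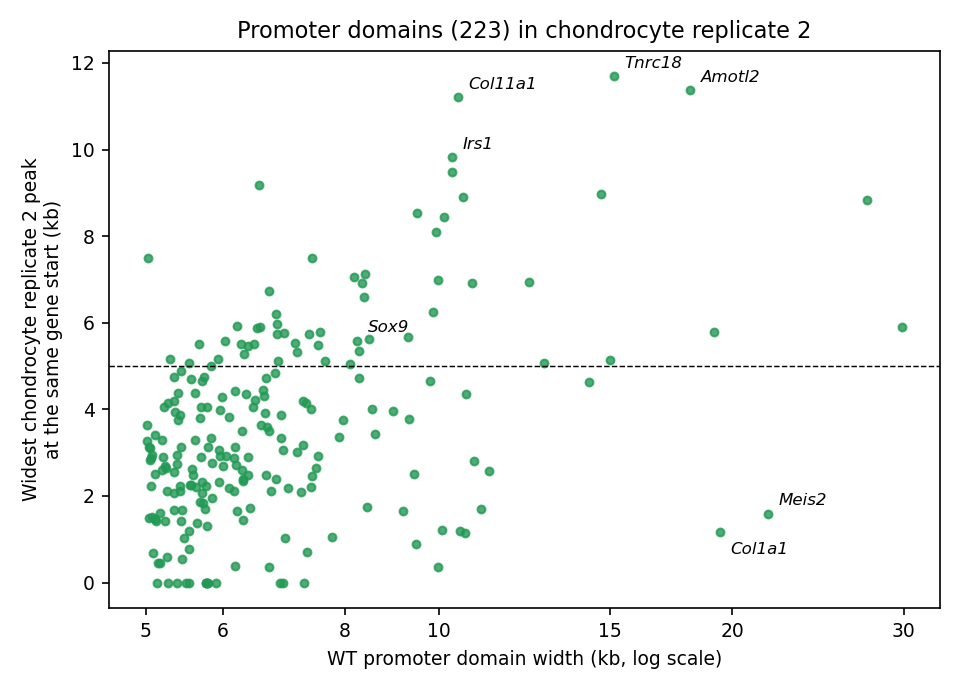
Widest chondrocyte replicate 2 peak within 1 kb of the gene start (kb) against the WT domain width (kb, log scale), 1 point for each of 223 promoter domains; the dashed line marks 5 kb. Tnrc18, Amotl2, Col11a1 and Irs1 lie near the top, and Meis2 and Col1a1 have wide WT domains with replicate 2 peaks of 1592 and 1177 bp at the start used here; another Meis2 start has one of 5745 bp.

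The other 3 mm9 lists covered the domains less, and least at the widest. Replicate 1 peaks covered a median of 59.5% of a domain, H3K4me2 57.7% and fibroblasts 45.3%. At domains of 8 kb or more the medians were 30.8%, 9.39% and 17.4%, against 81.6%, 85.5% and 66.5% for WT peaks of 2 to 5 kb. These lists, in a format with a score alone, held no peak wider than 8512 bp, whereas WT reached 29892 bp and the deletion 20786 bp. Replicate 2 reached 46443 bp in the stretch near Cwc22 and 15861 bp elsewhere. Replicate 1 had no peak at all in 28 of the 80 domains of 8 kb or more, H3K4me2 none in 38 and fibroblasts none in 31. Of the 28 promoter domains with no replicate 1 peak, 27 could be compared by gene, and 17 of them were broad in replicate 2. At Foxc1, Prrx1, Col11a1 and Sox9, replicate 1 listed no peak while replicate 2 listed 6938, 6925, 11213 and 5588 bp. An absent replicate 1 peak at a wide domain was therefore not read as absent acetylation. The H3K4me2 and fibroblast lists have the same format and no wider peaks. An absent peak there was not read as an absent mark either. Of the domains, 27.2% were covered to 80% or more by replicate 1, 31.2% by H3K4me2 and 19.3% by fibroblasts, against 37.7%, 64.6% and 24.5% of all WT peaks. Of all WT peaks 31.3% lay at a promoter, against 62.2% of the domains and 55.7% of the peaks of 2 to 5 kb.

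**Figure D5:**
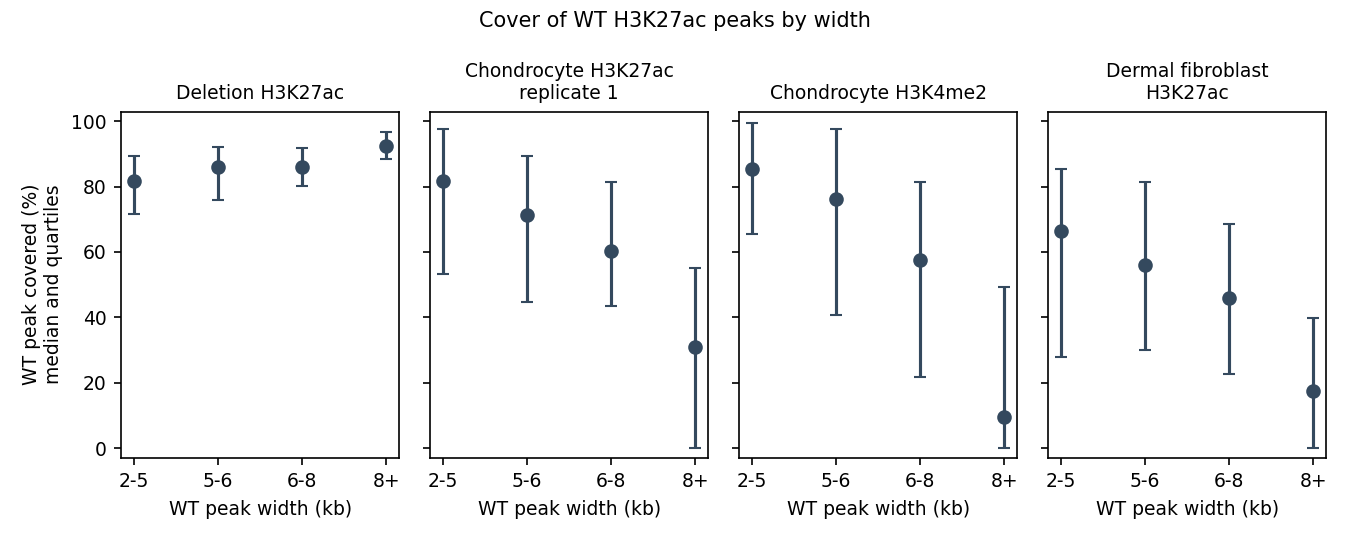
Cover of WT H3K27ac peaks by the peaks of 4 other mm9 lists (%, points are medians and bars run from the lower to the upper quartile), for WT peaks of 2 to 5, 5 to 6, 6 to 8 and 8 kb or more. The median rises with width to 92.4% in the deletion list and falls to 30.8%, 9.39% and 17.4% in the other 3.

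Cover by fibroblast peaks varied widely also below 8 kb, where that list holds peaks of like width. Of 288 domains of 5 to 8 kb, 66 were covered to 80% or more by fibroblast peaks, 53 of them at promoters. They include Klf6 (97.6%), Zfp36l1 (100%), the FGF inhibitor Spry2 (100%), the collagen genes Col6a3 (94.4%) and Col5a1 (97.0%), and the intermediate filament gene Vim (94.3%). A further 42 had no fibroblast peak listed, 11 of them at promoters, including Col2a1, Runx2, Twist1, Tcf7l2, Tgfb2 and Col3a1, and distal domains at Sim2, Mecom and Alx1. As Col3a1 is a fibroblast marker, this group describes the list and not which domains fibroblasts lack. Of these 42, 25 had peaks in both the replicate 1 and the H3K4me2 list. The median width kept in the deletion was 90.8% for the 66 and 82.5% for the 42. The groups differed in position, and promoter domains kept more of their width (median 89.3%) than distal ones (85.9%). Median fibroblast cover and median width kept were also higher at high scores. They were 17.8% and 77.8% in the 92 domains with the lowest scores, and 58.3% and 90.9% in the 92 with the highest. The part of position and score in this difference was not tested. Among WT peaks of 2 to 5 kb, 880 of 4206 (20.9%) had no fibroblast peak. Lacking one was less common among the domains of 5 to 8 kb, at 23 of 161 (14.3%) for 5 to 6 kb and 19 of 127 for 6 to 8 kb. Distal domains had lower shares, 28.1% and 28.9% against 42.9%. Promoter domains had slightly higher ones, 5.15% and 7.32% against 3.46%. At domains of 8 kb or more the share was 38.8%, and over all 368 domains it was 19.8%.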

How the data were processed

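Peak lists of 6 of the 7 ChIP-Seq libraries were analysed, and the input library was not used. Per the labels and the study's methods, the authors trimmed reads with fastp, aligned them with Bowtie2 (version 2.4.4) to mm9 and called peaks on each library with MACS2 (version 2.2.4) against input. The WT, deletion and replicate 2 lists were deposited with a score, a fold enrichment over the local background and −log10 p and q values for each peak. The replicate 1, H3K4me2 and fibroblast lists were deposited with a score alone, in the layout of earlier MACS releases, and the release that wrote them is not given in the sources used here. Scores were not compared between lists. Peak coordinates of replicate 2 matched gene starts of GRCm38 and not of mm9, so that list was joined by gene symbol only, over 20213 genes of both builds.

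Domains were WT peaks of 5000 bp or more on chromosomes 1 to 19 and X. Cover is the percentage of a peak's bases under peaks of another list (Python 3.11.15, checked against bedtools 2.31.1). Promoters were taken from GENCODE vM1 protein-coding genes, within 1000 bp of the 5′ end. Shares have exact Clopper-Pearson 95% intervals, which cover counting error only. The members and gene lists were chosen with earlier results of these data known. Widths of the domains chose them, so they are described and not tested. Named were the widest and the least and most kept domains, the 4 widest members of each list, and all domains of the regulator and cartilage matrix lists. The microRNA domains, the domains grouped by fibroblast cover and other genes, such as Bmp4 and Smad6, were picked after their values were seen. The cover and promoter steps were tested on simulated peaks. Alternatives changed the width limit, the promoter definition, the strength of a list and the rule for width kept. Some items are not reported here.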

Additional observations from a re-analysis of the deposited data

Results flagged for a closer look

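A WT H3K27ac peak of 5091 bp with a score of 605 lay outside the chromosomes analysed, at positions 420802 to 425892 of an unplaced stretch of chromosome 9 in mm9. It would have passed the width limit, and 1 deletion peak lay over it. It was listed because it is a signal in data that no comparison used.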

How the results depend on the processing

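Of 29 alternatives to 6 results, 11 moved a value by less than its interval (or a count by less than 1.5 times) and 18 moved it further. The number of domains depended on the width limit, at 681 for 4 kb and 80 for 8 kb, and was 709 when WT peaks less than 1 kb apart were merged. The promoter share was 67.4% with noncoding genes and 76.6% with every transcript start of protein-coding genes, an alternative chosen after seeing the data. The median width kept in the deletion was 84.3% with the higher-scoring 50% of deletion peaks, 73.2% for the longest single peak, 93.1% with deletion peaks less than 1 kb apart merged, and 92.4% for domains of 8 kb or more. The share keeping 80% was 61.7% with the higher-scoring 50% of deletion peaks, 70.6% at a width limit of 4 kb and 92.5% at 8 kb, and all 368 (100%) kept 50%. The share of promoter domain genes broad in replicate 2 was 38.4% at a limit of 4 kb, 52.7% at 3 kb and 49% with as many of its widest peaks as there were WT domains (3197 bp or more). Median fibroblast cover was 17.4% for domains of 8 kb or more and 26.6% with the higher-scoring 50% of fibroblast peaks. The cause of these shifts was not tested beyond each setting's construction. No paired analysis was possible because no result comes from a test, and the WT and deletion groups had 1 library each. Chondrocyte replicates 1 and 2 form 1 group and were described separately. With no read numbers, what depth limits could not be assessed.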
